A study of Mus musculus with 35 samples.

Results

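Wild-type bone marrow-derived macrophages (BMDMs) treated with DAMPs + Dex were compared with wild-type BMDMs treated with DAMPs, with 3 libraries per group, so that 6 of the 35 libraries analysed here form the comparison. Dex is dexamethasone, a synthetic glucocorticoid (GC). DAMPs are damage-associated molecular patterns, molecules that dying or injured cells release and that innate immune receptors recognise, and the labels do not say which molecules were used. The cells were grown from the bone marrow of C57BL/6 mice in medium conditioned by L929 cells, a source of M-CSF, and were treated for 24 h with 1 µg/ml DAMPs, with or without 100 nM Dex. The other groups used below are wild-type BMDMs given vehicle (DMSO) or 100 nM Dex (3 libraries each), 100 ng/ml LPS (replicates 2 and 3, since replicate 1 was not analysed here) or LPS + Dex (3 libraries), and BMDMs labelled AMPKα1-/- given DAMPs or DAMPs + Dex (3 libraries each). The study states that its N values stand for cultures from individual mice where it does not say otherwise. The cells are a bulk culture, so a change per cell and a change in the share of cells expressing a gene cannot be told apart.

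GCs diffuse into the cell and bind the glucocorticoid receptor, encoded by Nr3c1, which chaperones hold in the cytosol until the ligand arrives. The receptor then moves to the nucleus, where it raises the transcription of genes such as Fkbp5, Tsc22d3 and Dusp1 and lowers that of many inflammatory genes that NF-kB, AP-1 and interferon regulatory factors drive. In macrophages GCs are known for damping cytokine production and for raising genes of apoptotic cell clearance.

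The values are FPKM, a fragment number corrected for gene length and library size, as the authors deposited them. Library totals, worked out from the smallest FPKM steps of low genes, were 20961307, 18170030 and 27074721 fragments in DAMPs replicates 1 to 3 and 23092820, 15869037 and 31955298 fragments in DAMPs + Dex replicates 1 to 3. A single fragment therefore equalled 0.0313 to 0.0630 FPKM for a gene 1 kb long. Genes were tested where their mean over the 6 libraries was at least 1 FPKM, which left 11256 genes. Replicate numbers, where values are listed, run from 1 to 3. Pearson correlations of log2(FPKM + 1) across the genes tested were 0.971 to 0.980 between DAMPs libraries, 0.978 to 0.988 between DAMPs + Dex libraries and 0.917 to 0.946 between libraries of different groups. No library stood apart by this measure, but DAMPs replicate 3 was the highest of its group for many interferon-stimulated genes and replicate 2 the lowest for MHC class II genes, so the counts for those lists are also given without single libraries.

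The libraries carried the markers of macrophages. All 10 macrophage markers examined were above 1 FPKM on average, led by the lysozyme gene Lyz2 with 21592 to 27148 FPKM, and the M-CSF receptor gene Csf1r had 504 to 636 FPKM over the 6 libraries. Of 8 dendritic cell markers, all stayed below 1 FPKM in every library. The same held for 9 of 12 neutrophil markers, with Retnlg at 0 throughout. The B cell genes Ms4a1 and Pax5 and the T cell genes Cd3e and Cd3d were at or near 0, but 2 of 6 B cell markers and 1 of 6 T or NK cell markers averaged at least 1 FPKM. These were Ighm (9.28 to 41.2 FPKM), Cd79b (0.429 to 2.70 FPKM) and Cd4 (6.46 to 34.95 FPKM). The summed level of 6 stromal markers was 5.19, 1.34 and 8.22 FPKM in DAMPs replicates 1 to 3 and 9.42, 14.1 and 18.5 FPKM in DAMPs + Dex replicates 1 to 3, with Col1a2 the most abundant at 0.770 to 9.22 FPKM. Among the stromal markers Lum was at 0 in 5 of the 6 libraries, and Dcn and Pdgfra stayed below 1 FPKM in all 6.

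Adding Dex to DAMPs changed 2620 of the 11256 genes (23.3%), of which 1245 (11.1%) were higher and 1375 (12.2%) were lower (limma, Benjamini-Hochberg adjusted p under 0.05). Most of the changes were modest, since 65.2% of the called genes moved by less than 1 on the log2 scale. Larger changes than 1 on that scale were called for 366 higher and 545 lower genes, and changes above 3 for 34 higher and 33 lower genes. In 34.3% of all genes tested the DAMPs + Dex libraries did not overlap the DAMPs libraries, and 1218 of the higher and 1349 of the lower called genes were among them. Over all genes tested, the median of the fold changes was 0.04. All fold changes are on the log2(FPKM + 1) scale, which understates changes of genes with few FPKM.

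**Figure D1:**
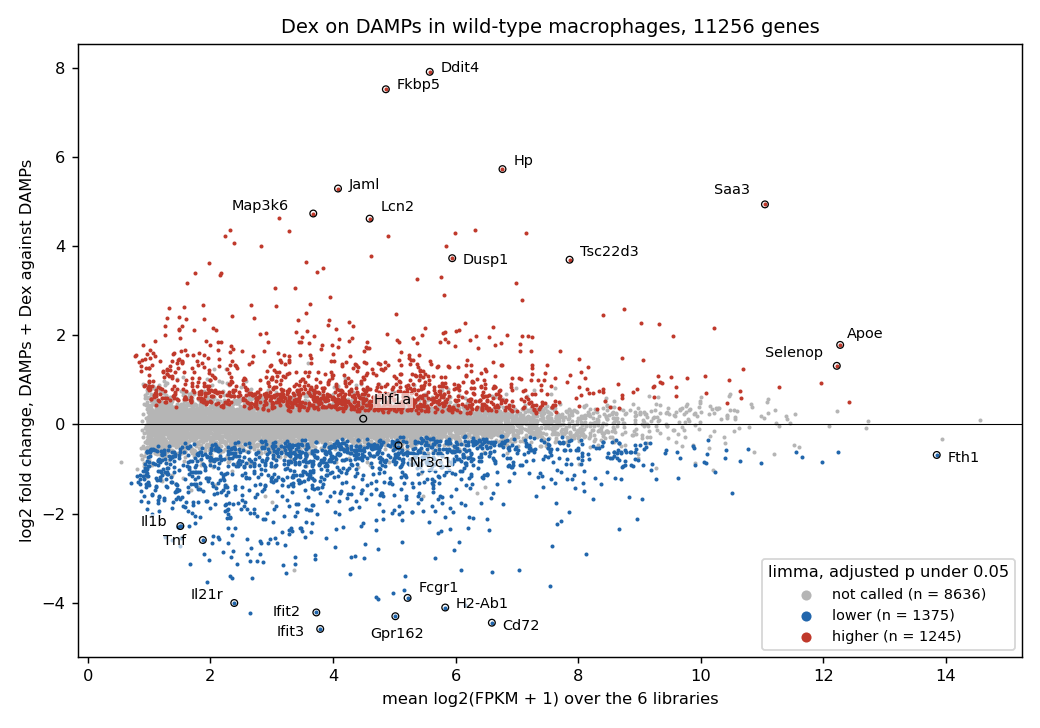
Log2 fold change of DAMPs + Dex against DAMPs (y axis) plotted against the mean log2(FPKM + 1) over the 6 libraries (x axis) for 11256 genes, each point a gene, coloured where limma called it higher (1245 genes) or lower (1375 genes). Ddit4 and Fkbp5 lie highest at 7.91 and 7.52, Ifit3 lies lowest of the labelled genes at −4.59, and Nr3c1 and Hif1a lie among the genes not called.

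The rises were led by Ddit4 and Fkbp5, both known targets of the glucocorticoid receptor. Ddit4 (ENSMUSG00000020108, chromosome 10 from 59949669 to 59951834), which encodes an inhibitor of mTORC1, had 2.41, 2.25 and 1.64 FPKM in DAMPs replicates 1 to 3 and 639.8, 865 and 731 FPKM in DAMPs + Dex replicates 1 to 3 (log2 fold change 7.91, standard error 0.14, adjusted p = 6.2e-12). Fkbp5 (ENSMUSG00000024222, chromosome 17 from 28399094 to 28517527), a co-chaperone that lowers the affinity of the receptor for its ligand, had 1.1, 1.64 and 0.792 FPKM with DAMPs and 368, 394 and 418 FPKM with DAMPs + Dex (log2 fold change 7.52, standard error 0.14, adjusted p = 6.2e-12). For both genes the groups lay far apart, and no library of one group came near the other group. Tsc22d3, the GILZ gene, had 60.9, 57.1 and 73.9 FPKM with DAMPs against 827, 892 and 788 FPKM with DAMPs + Dex and rose by 3.69 on the log2 scale (adjusted p = 9.1e-10). Dusp1, a phosphatase that switches off MAP kinases, had 20.2, 13.5 and 14.8 FPKM with DAMPs and 255, 199.97 and 218 FPKM with DAMPs + Dex (log2 fold change 3.73, standard error 0.17, adjusted p = 4.8e-08). The clock gene Per1 rose from 7.38, 9.52 and 8.28 FPKM to 35.3, 43.3 and 48.1 FPKM (log2 fold change 2.2, adjusted p = 1.8e-06).

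Of 30 genes listed as GC-induced, 27 were tested, 16 of them were called higher and 6 lower (81.5% called, against 23.3% of all genes tested), and their median log2 fold change was 2.2, against 0.04 over all genes tested. The higher members included Sult1a1, a sulfotransferase gene, at 4.35 and Tns1, which encodes an adaptor of focal adhesions, at 4.30. Sult1a1 had 15.7, 23.3 and 12.6 FPKM with DAMPs and 359, 436 and 298 FPKM with DAMPs + Dex. The members called lower were Tgm2 (−2.32), Anxa1 (−1.06), Angptl4 (−0.95), Sesn1 (−0.82), Rgs2 (−0.72) and Bcl6 (−0.71). Angptl4 lost the call when any library but DAMPs replicate 3 was left out (−0.69 to −1.10). Tgm2 encodes a transglutaminase, and Anxa1 encodes annexin A1, a protein that limits neutrophil recruitment. The list is a general one, and its members are not all GC-induced in every cell type.

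Nr3c1 itself had 57.2, 34.9 and 28.5 FPKM with DAMPs and 30.3, 21.5 and 31.9 FPKM with DAMPs + Dex, the groups overlapped, and the difference was not called (log2 fold change −0.47, adjusted p = 0.16). Over 15 alternatives the fold change ran from −0.19, without DAMPs replicate 1, to −0.68, without DAMPs replicate 3, where limma called Nr3c1 lower (adjusted p = 0.048). Among 15 tested genes of the receptor and its partners, 1 was called higher and 2 lower, a share of 20.0% that is near the 23.3% of all genes. The coactivator gene Ncoa1 rose by 1.03, and the chaperone genes Hsp90aa1 and Stip1 fell by 0.85 and 0.28 on the log2 scale, the latter without a call when any library but DAMPs replicate 1 was left out (−0.25 to −0.29).

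Promoters were read for the 8559 tested genes that have one in RefSeq (GRCm38.p6), from 250 bases before to 50 bases after the start. The core of the GC response element, ACANNNTGT, which reads the same on both strands, was in 4.84% of all these promoters, in 5.06% of those of higher genes and in 5.70% of those of lower genes. Of the 22 listed GC-induced genes with a promoter, 3 held it (13.6%). Windows around it are shown for Lcn2 and Map3k6 because both genes are among the 12 largest rises, with the matched letters in capitals. No window is shown for the others of the 12, among them Ddit4 and Fkbp5.
Lcn2 (chr2:32387868-32387906, - strand): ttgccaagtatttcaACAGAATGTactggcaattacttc
Map3k6 (chr4:133240624-133240662, + strand): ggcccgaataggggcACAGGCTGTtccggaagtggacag
Map3k6, a stress kinase gene, had 1.31, 1.96 and 1.24 FPKM with DAMPs and 53.7, 76.0 and 67.0 FPKM with DAMPs + Dex (log2 fold change 4.73, adjusted p = 1.7e-08). A match of letters is a description of the sequence and was not tested as a binding site.

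Several genes of the list of acute-phase and alarmin genes rose, some of them to high levels. Acute-phase proteins are secreted during inflammation, mostly by the liver, and GCs are known to raise several of their genes. Of 9 tested genes in this list, 6 were called higher and none lower (66.7% called, against 23.3% of all genes), with a median log2 fold change of 1.18. The rises were those of Hp, Saa3, Lcn2, Orm1, Orm2 and the alarmin gene Hmgb1 (0.41). The members without a call were the alarmin genes S100a8 (0.97) and S100a9 (−0.14) and the ceruloplasmin gene Cp (−0.1). Hp (ENSMUSG00000031722, chromosome 8 from 109575128 to 109579172), encoding haptoglobin, the scavenger of free haemoglobin, had 14.5, 7.25 and 25.1 FPKM with DAMPs and 753, 784 and 837 FPKM with DAMPs + Dex (log2 fold change 5.73, standard error 0.47, adjusted p = 4.5e-06). Saa3, a serum amyloid A gene, had 298, 200.2 and 931 FPKM with DAMPs and 7027, 12368 and 18467 FPKM with DAMPs + Dex (log2 fold change 4.93, standard error 0.68, adjusted p = 2.2e-04). The Saa3 libraries spread widely within each group, yet the highest DAMPs library stayed far below the lowest DAMPs + Dex library. Saa3 took 0.0430%, 0.0278% and 0.125% of the FPKM sum in DAMPs replicates 1 to 3, and 0.959%, 1.62% and 2.63% in DAMPs + Dex replicates 1 to 3. Lcn2, which encodes the iron-siderophore binder lipocalin 2, had 3.25, 5.59 and 3.19 FPKM with DAMPs and 99, 93.3 and 182 FPKM with DAMPs + Dex (log2 fold change 4.61, adjusted p = 2.1e-05). Orm1, the gene of alpha-1-acid glycoprotein, rose from 0.308, 0.426 and 0.286 FPKM to 7.38, 6.26 and 4.36 FPKM, and its relative Orm2 rose by 1.18 on the log2 scale. Orm1 and Orm2 are close in sequence, and reads may have been split between them.

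The remaining genes among the 12 largest rises have no single function in common. They were Jaml (5.29), a leukocyte adhesion molecule, St6galnac2 (4.64), a sialyltransferase, Htra1 (4.33), a secreted serine protease, and Cbr2 (4.29), a carbonyl reductase. Jaml had 2.14, 1.34 and 1.70 FPKM with DAMPs and 89.3, 132 and 98.3 FPKM with DAMPs + Dex. Cbr2 had 18.2, 37.8 and 43.7 FPKM with DAMPs and 489, 1082 and 469 FPKM with DAMPs + Dex, with replicate 2 standing above replicates 1 and 3.

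**Figure D2:**
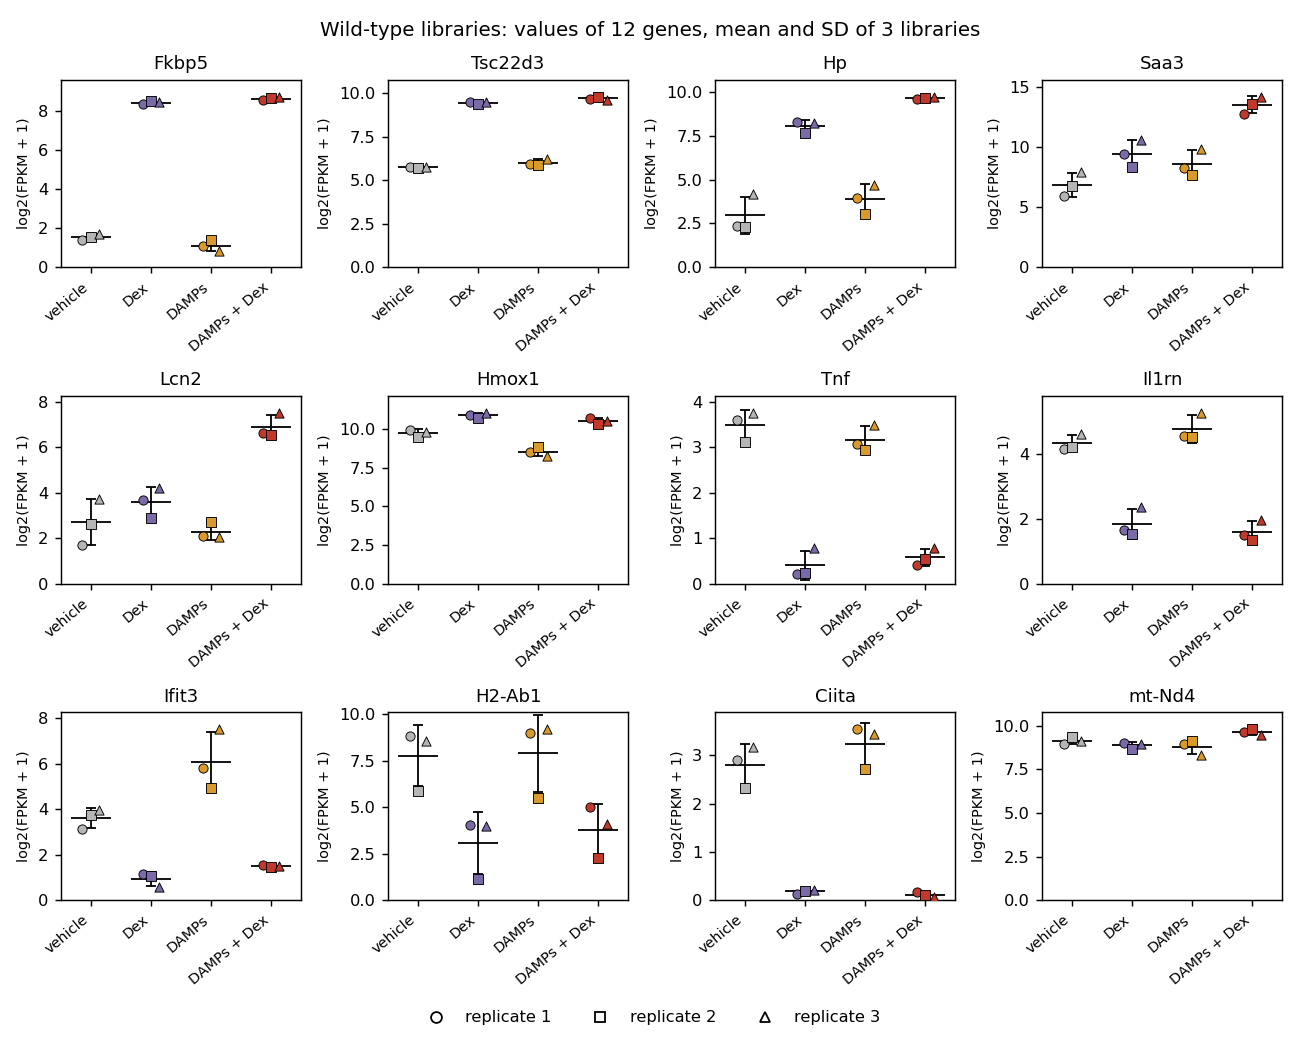
Log2(FPKM + 1) of 12 genes (y axes) in the wild-type vehicle, Dex, DAMPs and DAMPs + Dex libraries (x axes). Each symbol is a library, its shape gives the replicate number, the horizontal line is the mean and the bar the SD of 3 libraries. In each panel the DAMPs + Dex libraries do not overlap the DAMPs libraries, and H2-Ab1 replicate 2 is the lowest of its group in all 4 treatments.

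Some inflammatory cytokine genes fell with Dex, among them Tnf and Il1b. Of 25 listed cytokines and inflammatory enzymes, 13 reached the filter on low values, 5 of these were called lower (38.5%, against 12.2% of all genes) and none higher (1 higher without DAMPs replicate 3), and the median log2 fold change was −0.65. The 8 others were not called, and Csf1 (0.7), Il18 (0.3) and Osm (0.15) had values above 0. Tnf (ENSMUSG00000024401, chromosome 17 from 35199381 to 35202007) had 7.44, 6.71 and 10.3 FPKM with DAMPs and 0.335, 0.447 and 0.726 FPKM with DAMPs + Dex (log2 fold change −2.59, standard error 0.22, adjusted p = 5.4e-06). Il1b had 6.38, 2.04 and 10.01 FPKM with DAMPs and 0.804, 0 and 0.194 FPKM with DAMPs + Dex, and fell by 2.28 (adjusted p = 0.0021). With DAMPs + Dex both genes were under 1 FPKM, so these folds depend on the pseudocount, and with 0.1 in place of 1 they were −3.80 for Tnf and −4.12 for Il1b. The groups did not overlap for either gene, although DAMPs replicate 2 of Il1b lay well under the other DAMPs libraries. Members that restrain inflammation fell as well. Il1rn, the gene of the IL-1 receptor antagonist, had 22.2, 21.7 and 37.0 FPKM with DAMPs and 1.85, 1.52 and 2.89 FPKM with DAMPs + Dex (log2 fold change −3.16, adjusted p = 4.5e-06). Il10, an anti-inflammatory cytokine gene, went from 5.86, 6.60 and 6.48 FPKM to 1.72, 1.68 and 1.19 FPKM (log2 fold change −1.54, adjusted p = 5.0e-04). Acod1, whose enzyme makes itaconate, fell by 2.29 on the log2 scale. Il6 stayed between 0 and 0.170 FPKM in all 6 libraries and was not tested, and Nos2 and Il12b were also below 1 FPKM.

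Among chemokine genes, 7 of 17 tested were called lower and 1 higher (47.1% called, against 23.3% of all genes), with a median of −0.87. Ccl4, which encodes MIP-1 beta, had 11.1, 10.3 and 41.2 FPKM with DAMPs and 1.12, 0.859 and 1.56 FPKM with DAMPs + Dex (log2 fold change −3.06, adjusted p = 1.6e-04). Ccl5, which encodes RANTES, had 109, 54.4 and 746 FPKM with DAMPs, where replicate 3 stood far above the others, and 41.0, 11.7 and 34.4 FPKM with DAMPs + Dex (log2 fold change −2.64, adjusted p = 0.033). The call for Ccl5 was lost without DAMPs replicate 3, where the fold change was −1.55, and also without DAMPs + Dex replicate 2 or 3. Pf4, the platelet factor 4 gene, fell by 2.33. The member called higher was Ccl17, a ligand of CCR4, which had 0.372, 0.215 and 0 FPKM with DAMPs and 5.40, 8.48 and 5.55 FPKM with DAMPs + Dex (log2 fold change 2.63, adjusted p = 1.1e-05).

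Receptor genes moved in both directions. Among 27 tested chemokine and cytokine receptor genes, 12 were called lower and 4 higher (59.3% called, against 23.3% of all genes), and the higher ones were 2 without DAMPs + Dex replicate 2 or 3. Il21r, the receptor of IL-21, had 15.6, 22 and 23.3 FPKM with DAMPs and 0.321, 0.292 and 0.305 FPKM with DAMPs + Dex (log2 fold change −4.01, standard error 0.18, adjusted p = 4.2e-08). The chemokine receptor genes Ccr2 and Cx3cr1 fell by 2.66 and 1.69 on the log2 scale. In the other direction, Ifngr1, the ligand-binding chain of the interferon gamma receptor, had 303, 302 and 277 FPKM with DAMPs and 1368, 1359.8 and 1467 FPKM with DAMPs + Dex (log2 fold change 2.25, adjusted p = 7.8e-08), while the gene of its partner chain, Ifngr2, fell by 0.64. The groups were tight for Ifngr1 and differed by several times their spread.

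Pattern recognition receptors, through which macrophages sense microbes and DAMPs, were lower in 12 and higher in 2 of the 27 tested (51.9% called, against 23.3% of all genes). Clec7a, the beta-glucan receptor dectin 1, had 201, 82.2 and 174 FPKM with DAMPs and 22.3, 15 and 14.5 FPKM with DAMPs + Dex (log2 fold change −3.0, adjusted p = 5.5e-05). Tlr1, a partner of TLR2, fell by 2.53. Tlr9, the receptor for CpG DNA, went from 14.3, 14.4 and 16 FPKM to 3.74, 2.57 and 4.15 FPKM (log2 fold change −1.84), and the formyl peptide receptor gene Fpr1 went from 6.95, 8.48 and 9.51 FPKM to 3.43, 1.57 and 2.79 FPKM (log2 fold change −1.40). The members called higher were Tlr7 (0.76) and Ly96 (0.62), the latter encoding MD-2, the co-receptor of TLR4.

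In the NF-kB list, which holds subunits and feedback inhibitors, 9 of 21 tested genes were called lower and 2 higher (52.4% called, against 23.3% of all genes). The lower ones were 5 of 19 without DAMPs replicate 2 and 6 of 21 without DAMPs + Dex replicate 1. The higher ones were the inhibitor genes Nfkbia (1.1) and Tnfaip3 (0.59), and Tnfaip3 kept the call only when DAMPs replicate 1 or DAMPs + Dex replicate 2 was the library left out (0.46 to 0.59 in the other fits). Tnip3, encoding a partner of A20, had 44.3, 43.1 and 37.4 FPKM with DAMPs and 6.52, 4.07 and 5.51 FPKM with DAMPs + Dex (log2 fold change −2.76, adjusted p = 1.2e-07). Nfkbiz, Nfkbie and the phosphatase gene Dusp4 fell by 1.61, 1.33 and 1.34. A form of the NF-kB site, GGGA and TTCC with 2 bases between them on either strand, was in 1.83% of all promoters, 2.85% of those of lower genes and 1.92% of those of higher genes.

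Interferon-stimulated genes fell in large number, and their list had the lowest median with all 6 libraries. Type I interferons act through a complex of STAT proteins and IRF9 that binds the interferon response element in the promoters of antiviral genes. All 30 listed genes were tested, 27 of them were called lower (90.0%, against 12.2% of all genes) and none higher, and the median log2 fold change was −2.42. Ifit3 (ENSMUSG00000074896, chromosome 19 from 34583531 to 34588731), an interferon-induced antiviral gene, had 55.2, 29.6 and 181 FPKM with DAMPs and 1.89, 1.73 and 1.85 FPKM with DAMPs + Dex (log2 fold change −4.59, standard error 0.48, adjusted p = 2.7e-05). The DAMPs libraries of Ifit3 differed several times among themselves, with replicate 3 highest and replicate 2 lowest, whereas the DAMPs + Dex libraries lay close together. Ifit2 followed the same order of libraries with 52.7, 19.5 and 169 FPKM and 2.36, 1.51 and 2.44 FPKM (log2 fold change −4.22, adjusted p = 1.4e-04). Ifi44 had 94.2, 46.5 and 245 FPKM with DAMPs and 6.31, 4.43 and 7.02 FPKM with DAMPs + Dex (log2 fold change −3.92), and Rtp4, a chaperone of receptors, had 80.9, 51.3 and 226 FPKM and 5.97, 5.01 and 6.43 FPKM (log2 fold change −3.87). Without DAMPs replicate 3, the library with the highest values, 26 of the 30 genes were called lower and the median was −1.94, above the −2.03 of the class II list in the same fit.

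The interferon response element, searched as a pair of GAAA copies with 2 bases between them on either strand, was in 4.0% of the 8559 promoters, in 7.51% of those of lower genes, in 3.85% of those of higher genes, and in 15 of the 23 interferon-stimulated genes that have a promoter in the table (65.2%). The windows below are those of listed genes that were called lower and that hold the letters more than once. Capitals mark the matched letters, in the direction of the gene, so that paired TTTC copies are the same element on the other strand.
Ifit3 (chr19:34583358-34583431, + strand): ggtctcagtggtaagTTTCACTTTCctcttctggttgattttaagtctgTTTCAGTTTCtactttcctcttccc
Ifit1 (chr19:34640770-34640828, + strand): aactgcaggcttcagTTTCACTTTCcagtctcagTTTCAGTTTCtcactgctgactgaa
Isg15 (chr4:156200860-156200911, - strand): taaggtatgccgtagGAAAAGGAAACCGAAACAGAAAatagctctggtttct
Oas1a (chr5:120907515-120907560, - strand): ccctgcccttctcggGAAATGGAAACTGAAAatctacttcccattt
Bst2 (chr8:71537572-71537617, - strand): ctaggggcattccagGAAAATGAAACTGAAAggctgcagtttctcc
Gbp3 (chr3:142559984-142560029, + strand): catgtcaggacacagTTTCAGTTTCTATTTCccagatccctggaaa
These genes fell by 4.59 (Ifit3), 3.45 (Ifit1), 2.96 (Isg15), 1.59 (Oas1a), 2.13 (Bst2) and 2.91 (Gbp3) on the log2 scale. In Isg15 the 3 matches run into each other, and in Oas1a, Bst2 and Gbp3 the 2 matches overlap.

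The MHC class II genes H2-Aa, H2-Ab1 and H2-Eb1 fell to a small fraction of their level with DAMPs. Class II molecules present peptides to helper T cells, and the transactivator CIITA drives their genes. Of 14 tested genes of class II presentation and costimulation, 10 were called lower (71.4%, against 12.2% of all genes) and none higher (1 higher without DAMPs + Dex replicate 1), with a median of −2.22. Ciita had 10.6, 5.63 and 9.87 FPKM with DAMPs and 0.124, 0.0720 and 0.0476 FPKM with DAMPs + Dex (log2 fold change −3.12, standard error 0.24, adjusted p = 2.1e-06). H2-Aa had 417, 113 and 518 FPKM with DAMPs and 24.9, 10.8 and 16.7 FPKM with DAMPs + Dex (log2 fold change −4.05, standard error 0.56, adjusted p = 2.2e-04). H2-Ab1 (ENSMUSG00000073421, chromosome 17 from 34257689 to 34269419) had 512, 43.7 and 576 FPKM with DAMPs and 30.8, 3.77 and 15.9 FPKM with DAMPs + Dex, a fall that was called with a wide error (log2 fold change −4.11, standard error 1.15, adjusted p = 0.022). Replicate 2 had the lowest H2-Ab1 value of every wild-type treatment group that has 3 libraries and the lower of the LPS values. At each replicate number the DAMPs + Dex value was below the DAMPs value. H2-Eb1, Cd74 and the inhibitory ligand gene Cd274 fell by 3.79, 2.73 and 2.32. H2-DMb1, a chain of the peptide-loading molecule H2-DM, passed the threshold narrowly (log2 fold change −2.13, adjusted p = 0.046) and was not called in 4 of the 6 fits without a single library (−1.51 to −2.21), and H2-DMb2 was not called (−1.61, adjusted p = 0.12). H2-Ab1 was not called without DAMPs replicate 1 (−3.55), DAMPs replicate 3 (−3.47) or DAMPs + Dex replicate 2 (−3.35). The count for this list was 7 of 14 without DAMPs replicate 3 and 7 of 14 without DAMPs + Dex replicate 2.

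The other genes among the 12 largest falls were Cd72, Gpr162, Pcp4l1 and Fcgr1. Cd72, a C-type lectin receptor gene, had 331, 387 and 712 FPKM with DAMPs and 22, 20.4 and 16.8 FPKM with DAMPs + Dex (log2 fold change −4.45, standard error 0.22, adjusted p = 8.8e-08). Gpr162, an orphan receptor gene, had 121, 161 and 150.0 FPKM and 9.31, 3.79 and 6.83 FPKM (log2 fold change −4.30). Fcgr1, the high-affinity IgG receptor, had 101, 108 and 264 FPKM with DAMPs, with replicate 3 again the highest, and 11.2, 8.85 and 6.45 FPKM with DAMPs + Dex (log2 fold change −3.89, adjusted p = 5.9e-06). Of the 6 Fc receptor genes, Fcgr1 and the signalling chain gene Fcer1g (−0.92) were lower and the neonatal Fc receptor gene Fcgrt (1.63) was higher (50% called, against 23.3% of all genes).

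**Figure D3:**
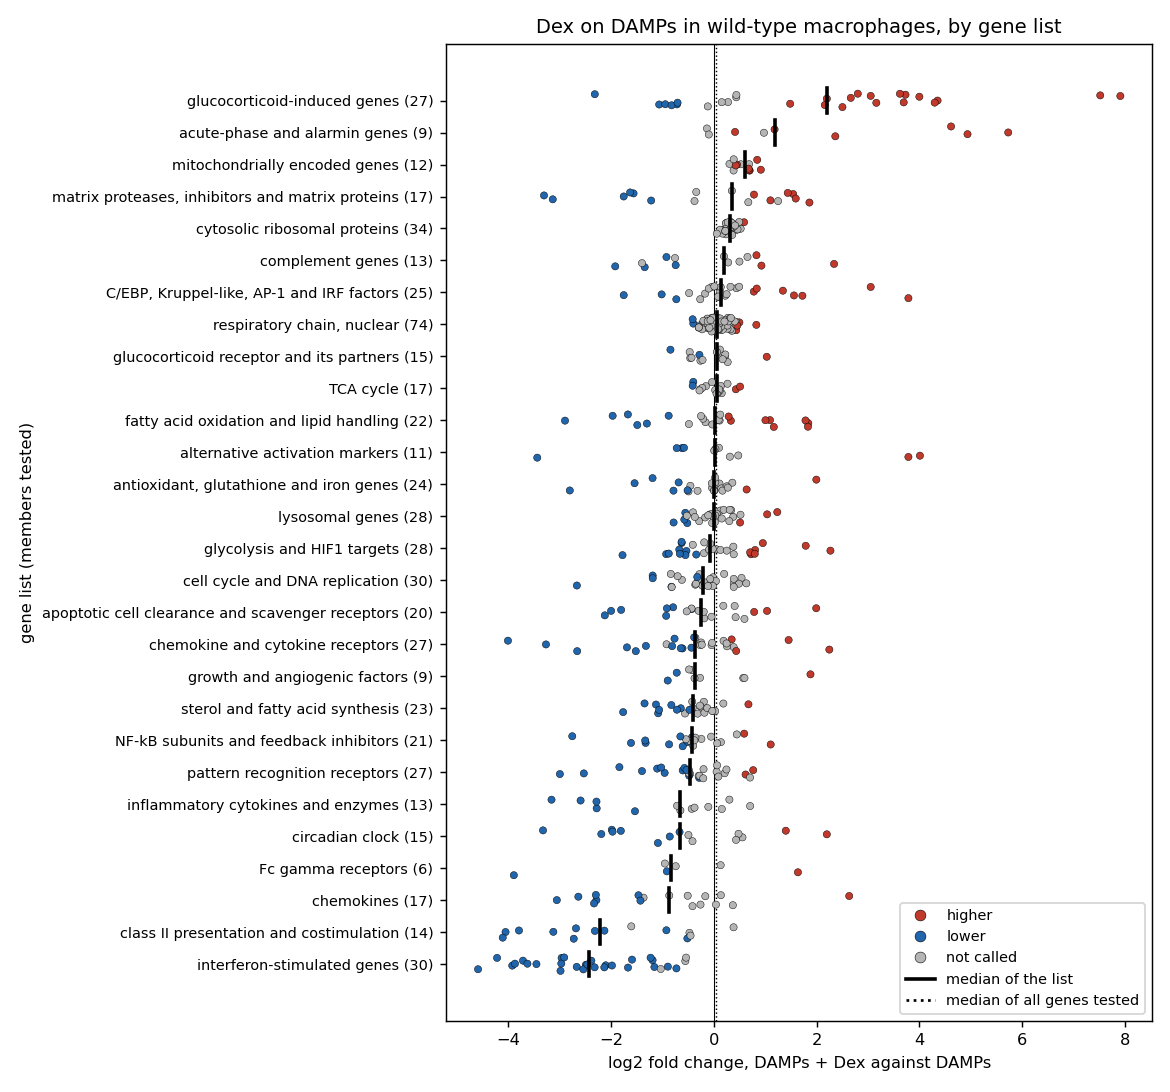
Log2 fold change of DAMPs + Dex against DAMPs (x axis) for the tested members of 28 gene lists (y axis, number of members tested in brackets), each point a gene, red where called higher, blue where called lower and grey where not called. Thick bars are list medians and the dotted line is the median of all genes tested, 0.04. With all 6 libraries the interferon-stimulated list has the lowest median, −2.42 (without DAMPs replicate 3 the class II list has it, at −2.03 against −1.94), and the GC-induced list the highest, 2.2.

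Genes of apoptotic cell clearance did not move as one group. Of 20 tested, 3 were called higher and 7 lower (50% called, against 23.3% of all genes). Mertk, a receptor tyrosine kinase that takes up apoptotic cells, had 45.9, 37.6 and 35.3 FPKM with DAMPs and 163, 135 and 184 FPKM with DAMPs + Dex (log2 fold change 1.99, standard error 0.15, adjusted p = 1.8e-06). Axl, a kinase of the same family, went the other way, from 70.2, 53.7 and 76.9 FPKM to 19.8, 13.9 and 14.3 FPKM (log2 fold change −2.0, adjusted p = 7.1e-05). The scavenger receptor genes Cd36 and Cd300lb fell by 2.12 and 1.81, and Stab1 and Itgb5 rose by 1.03 and 0.78 on the log2 scale.

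Complement and alternative activation genes were also mixed. Of 13 complement genes tested, 3 were higher and 4 lower (53.8% called, against 23.3% of all genes). C1qb, a subunit of C1q, had 2371, 2911 and 3501 FPKM with DAMPs and 5214, 6932 and 4576 FPKM with DAMPs + Dex (log2 fold change 0.92, adjusted p = 0.0078), and Cd55, which protects cells from complement, rose by 2.34. The properdin gene Cfp and Itgam, the alpha chain of complement receptor 3, fell by 1.35 and 1.92. Among 11 alternative activation markers tested, 2 were higher and 4 lower (54.5% called, against 23.3% of all genes), and the lower ones were 1 without DAMPs replicate 1, DAMPs replicate 2 or DAMPs + Dex replicate 2. Chil3, encoding the chitinase-like protein Ym1, had 0.898, 0.319 and 1.18 FPKM with DAMPs and 20.2, 25.6 and 39.2 FPKM with DAMPs + Dex (log2 fold change 4.01, adjusted p = 2.3e-04). Egr2, a transcription factor induced by IL-4, had 22.9, 13.5 and 12.9 FPKM and 0.581, 0.443 and 0.660 FPKM (log2 fold change −3.44, adjusted p = 5.6e-06). Mrc1, the mannose receptor gene, fell by 0.62, Igf1 by 0.72 and Pparg by 0.58, and in those 3 fits none of these genes was called. Igf1 then had −0.55 to −0.69. Mrc1 was also not called without DAMPs + Dex replicate 1, and Pparg without DAMPs + Dex replicate 3, and over the fits with no call Mrc1 had −0.52 to −0.56 and Pparg −0.46 to −0.56.

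Several transcription factor genes of the Kruppel-like and C/EBP families rose. Of 25 tested factors of the C/EBP, Kruppel-like, AP-1 and IRF families, 7 were called higher and 3 lower (40% called, against 23.3% of all genes). Klf4 had 5.45, 6.29 and 5.23 FPKM with DAMPs and 68.6, 104 and 104 FPKM with DAMPs + Dex (log2 fold change 3.78, standard error 0.23, adjusted p = 3.8e-07). Klf9 rose by 3.05, Klf13 by 1.72 and Cebpb by 1.34. The stress-response factor gene Atf3 had 156, 151 and 160.1 FPKM and 52.2, 40.5 and 44.2 FPKM (log2 fold change −1.75, adjusted p = 9.3e-06), and Irf1 fell by 1.02.

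The circadian clock list held 8 lower and 2 higher genes of 15 tested (66.7% called, against 23.3% of all genes), with a median of −0.67. Without DAMPs replicate 1 the higher ones were 4. Per1 and Arntl, the gene of the activator BMAL1, rose by 2.2 and 1.40. Dbp, an output gene of the clock, had 25, 32.0 and 29.9 FPKM with DAMPs and 2.58, 1.77 and 1.66 FPKM with DAMPs + Dex (log2 fold change −3.33, standard error 0.20, adjusted p = 3.7e-07). The repressor genes Bhlhe41 and Per3 fell by 2.19 and 1.99. The cultures were sampled at 24 h only, so the phase of the clock was not measured.

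Lipid genes split into opposite directions. Of 22 tested genes of fatty acid oxidation and lipid handling, 8 were higher and 6 lower (63.6% called, against 23.3% of all genes), with 5 higher and 5 lower without DAMPs + Dex replicate 2. Lpl, the gene of lipoprotein lipase, had 817, 824 and 667 FPKM with DAMPs and 97.0, 98.5 and 111 FPKM with DAMPs + Dex (log2 fold change −2.90, standard error 0.27, adjusted p = 9.6e-06). Lipa, the lysosomal acid lipase gene, fell by 1.97. Pnpla2, the gene of adipose triglyceride lipase, had 45, 60.9 and 63.1 FPKM and 171, 239 and 197 FPKM (log2 fold change 1.83), and the fatty acid carrier gene Fabp4 rose by 1.84. Sterol and fatty acid synthesis genes were lower in 9 and higher in 1 of 23 tested (43.5% called, against 23.3% of all genes), with a median of −0.41. Without DAMPs replicate 3 the lower genes were 5 of 22 and the median was −0.22. Srebf2, whose product drives the transcription of sterol genes, had 20.7, 21 and 24.3 FPKM with DAMPs and 9.18, 9.61 and 11.2 FPKM with DAMPs + Dex (log2 fold change −1.07, adjusted p = 8.7e-04). Idi1, Sqle and Msmo1, enzymes of cholesterol synthesis, fell by 1.13, 1.08 and 0.83.

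In the list of glycolysis and HIF1 targets, 7 of 28 tested genes were higher and 10 lower (60.7% called, against 23.3% of all genes). Pfkfb3, whose product makes the activator of phosphofructokinase, had 41.4, 29.4 and 25.4 FPKM with DAMPs and 153, 123 and 198 FPKM with DAMPs + Dex (log2 fold change 2.27, standard error 0.19, adjusted p = 5.5e-06). The glucose transporter gene Slc2a3 rose by 1.79 and the mitophagy receptor gene Bnip3 by 0.95. Hk3, a hexokinase gene, had 172, 192 and 247 FPKM and 63.8, 53.8 and 57.0 FPKM (log2 fold change −1.78), and Pkm and Ldha fell by 0.93 and 0.63. Hif1a had 27.0, 19.6 and 16.3 FPKM with DAMPs and 24.8, 17.1 and 26.9 FPKM with DAMPs + Dex, with overlapping groups and no call (log2 fold change 0.13, adjusted p = 0.70).

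Nuclear genes of mitochondrial energy metabolism were mostly not called. Of 17 genes of the TCA cycle, 2 were higher and 2 lower, with a median of 0.05. The share called was 23.5%, near the 23.3% of all genes. Idh3g and Idh3b, subunits of isocitrate dehydrogenase, rose by 0.51 and 0.43, and Sdhb and Sdhc, subunits of succinate dehydrogenase, fell by 0.4 and 0.41 on the log2 scale. The calls for Sdhb and Sdhc were lost without DAMPs replicate 3, at −0.28 and −0.29, and without other single libraries. Of 74 tested respiratory chain genes in the nucleus, 4 were higher and 2 lower, a share of 8.11% against 23.3% of all genes, and their median was 0.06. The 2 lower ones were again Sdhb and Sdhc, which are in both lists. The calls were 1 without DAMPs + Dex replicate 1, 2 without DAMPs replicate 2, 3 without DAMPs + Dex replicate 2, and 4 without DAMPs replicate 1 or 3. Without DAMPs + Dex replicate 3 there were 8, all of them higher. Ndufv2, a subunit of complex I, rose by 0.83. Of the genes of the mitochondrial genome, 7 of 12 tested were called higher and none lower (58.3% called, against 23.3% of all genes), with a median of 0.60. mt-Nd6 had 322, 345 and 222 FPKM with DAMPs and 516, 632 and 506 FPKM with DAMPs + Dex (log2 fold change 0.91, adjusted p = 0.0016), and mt-Nd4 had 492, 556 and 322 FPKM and 792, 889.7 and 722 FPKM (log2 fold change 0.84). In both genes DAMPs replicate 3 was the lowest of the 6 libraries. Leaving out single libraries of the 6 gave 3 to 7 of the 12 genes called higher, with medians of 0.37 to 0.74, and 4 genes at 0.37 without DAMPs replicate 3.

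Iron and antioxidant genes were called higher in 2 and lower in 6 of 24 tested (33.3% called, against 23.3% of all genes), with 1 higher without DAMPs replicate 1 or 2 or DAMPs + Dex replicate 1 or 2. Hmox1, the gene of haem oxygenase 1, had 365, 465 and 308 FPKM with DAMPs and 1727, 1302 and 1471 FPKM with DAMPs + Dex (log2 fold change 1.99, standard error 0.18, adjusted p = 7.3e-06). Tfrc, the transferrin receptor, had 87.5, 84.2 and 45.3 FPKM and 9.5, 8.32 and 9.48 FPKM (log2 fold change −2.80, adjusted p = 5.7e-06). The antioxidant genes Prdx1 and Srxn1 fell by 1.54 and 1.19. Hmox1 thus rose while the transferrin receptor gene fell, with no overlap between the groups for either.

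Matrix and protease genes were evenly divided, with 6 higher and 6 lower of 17 tested (70.6% called, against 23.3% of all genes). Mmp12, the macrophage elastase gene, had 519, 199 and 269 FPKM with DAMPs and 49.2, 16.2 and 32.7 FPKM with DAMPs + Dex (log2 fold change −3.31, adjusted p = 8.4e-04), and Plau, the urokinase gene, fell by 3.14. Mmp14, a membrane-bound protease gene, fell by 1.75. Sparc, a matrix protein gene that stromal cells express, had 4.02, 0.867 and 6.05 FPKM and 12, 14.5 and 14.6 FPKM (log2 fold change 1.86, adjusted p = 0.041), a call that was lost when any library but DAMPs replicate 3 was left out (1.30 to 2.01). The summed stromal markers given above were also higher in each DAMPs + Dex library than in any DAMPs library, and their part in the matrix genes was not tested. Tgfb2 rose from 0.287, 0.0301 and 0.0404 FPKM to 2.51, 3.21 and 3.65 FPKM, while Pdgfb and Igf1 fell by 0.90 and 0.72.

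Cell cycle genes were lower in 5 and higher in none of 30 tested (16.7% against 23.3% of all genes), but without DAMPs replicate 2 they were lower in 3 and higher in 4 of 29. Without DAMPs + Dex replicate 1 or 2 they were lower in 3, and without DAMPs replicate 3 they were higher in 1. Ccnd1, the cyclin D1 gene, had 20.1, 25 and 16.9 FPKM with DAMPs and 2.74, 2.01 and 2.42 FPKM with DAMPs + Dex (log2 fold change −2.67, standard error 0.20, adjusted p = 2.0e-06). Pcna, the sliding clamp of replication, had 244, 257 and 233 FPKM and 108, 107 and 105 FPKM (log2 fold change −1.19), and Tk1 and Ccne1 fell by 1.19 and 0.83, with no call for Tk1 without DAMPs replicate 2 (−0.78), DAMPs + Dex replicate 1 (−1.18) or DAMPs + Dex replicate 2 (−0.98). Lysosomal genes were called higher in 3 and lower in 4 of 28 tested, a share of 25% that is near that of all genes, with the protease gene Ctsl at 1.23 and the galactosidase gene Gla at −0.78. The lower ones were 1 without DAMPs replicate 3, DAMPs + Dex replicate 1 or DAMPs + Dex replicate 3. Of 34 cytosolic ribosomal protein genes, Rps9 was called (0.59, higher), a share of 2.94% against 23.3% of all genes. The median of the list was 0.31. It was 0.18 without DAMPs + Dex replicate 2 and 0.46 without DAMPs + Dex replicate 3. The call for Rps9 was kept only when DAMPs + Dex replicate 3 was the library left out, and 9 genes of the list were called then.

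Among the most abundant genes, the called rises were those of Saa3, Apoe, Selenop, Psap and C1qb. Psap (0.51), the gene of the saposins, was called in 5 of 15 alternatives and lost the call when any library but DAMPs replicate 3 was left out (0.41 to 0.55), and its fold change was 0.01 with quantile normalization. Apoe, which carries lipids out of macrophages, had 2199, 2216 and 3915 FPKM with DAMPs and 7032, 12988 and 8502 FPKM with DAMPs + Dex (log2 fold change 1.78, adjusted p = 7.6e-04). Selenop, the gene of the selenium carrier selenoprotein P, had 3279, 3113 and 2716 FPKM and 7404, 7615 and 7539.8 FPKM (log2 fold change 1.31), and the groups were tight. The abundant genes called lower were those of the ferritin heavy chain Fth1 (−0.69), thymosin beta 4 Tmsb4x (−0.63), beta 2 microglobulin B2m (−0.84), galectin 3 Lgals3 (−0.72) and Itm2b (−0.63). Of these, Fth1 lost the call without DAMPs replicate 2 (−0.65), Fth1 (−0.64) and Tmsb4x (−0.55) lost it without DAMPs replicate 3, and Fth1, Tmsb4x and Itm2b (−0.53) without DAMPs + Dex replicate 3.

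To ask whether DAMPs altered the response to Dex, the effect of Dex on DAMPs was set beside that of Dex alone. Dex against vehicle called 3293 of the same 11256 genes (29.3%), 1723 higher and 1570 lower. Of the genes higher with Dex on DAMPs, 865 were also higher with Dex alone, which is 69.5% of the former and 50.2% of the latter. Of the lower genes, 935 were shared (68.0% and 59.6%). The effects were called in opposite directions for 4 genes. Across the 11256 genes the Pearson correlation of both sets of log2 fold changes was 0.81, where the effects share no library but come from one fit. The difference between the effects was called for 0 genes (limma interaction, 0.0% of genes tested), with 1112 genes (9.88%) at an unadjusted p under 0.05 and a smallest adjusted p of 0.094. The 95% interval of the difference, not adjusted for the number of genes, reached a median of 0.49 to either side on the log2 scale. Smaller differences in single genes would have been hard to detect here. Larger ones also went without a call, such as 0.86 for H1f0 and 1.78 for Kcne3, so the absence of calls does not exclude them.

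The genes with the smallest p for this difference were H1f0 and Kcne3. H1f0, a linker histone gene, had 84.9, 80.4 and 80.2 FPKM with vehicle, 72.1, 74.0 and 79.8 with Dex, 84.9, 75.9 and 79.0 with DAMPs and 132, 141 and 131 with DAMPs + Dex. It was thus higher with DAMPs + Dex than in any other library, with a difference of 0.86 between the log2 effects (95% interval 0.6 to 1.12, adjusted p = 0.094). Kcne3, a potassium channel subunit gene, had log2 fold changes of 1.15 with Dex on DAMPs and −0.63 with Dex alone (adjusted p of the difference 0.094).

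Some gene groups had different medians under both Dex effects, although no single difference was called. In the interferon-stimulated list the median log2 fold change was −2.42 on DAMPs and −0.92 on vehicle, with 27 and 13 of 30 genes called lower, against 12.2% of all genes on DAMPs and 13.9% on vehicle. Of the 30 differences, 22 had an unadjusted p under 0.05 (9.88% of all genes), all toward a larger fall on DAMPs. Members of a list were measured in the same libraries and can move together, so such counts are not independent. Without DAMPs replicate 3 the median of this list on DAMPs was −1.94. The starting level differed too. Ifit3 had 7.70, 12.2 and 14.5 FPKM with vehicle, 1.19, 1.08 and 0.485 with Dex, 55.2, 29.6 and 181 with DAMPs and 1.89, 1.73 and 1.85 with DAMPs + Dex, so that the Dex-treated groups lay close together and the untreated ones did not. DAMPs against vehicle, which uses the same DAMPs libraries, called 47 genes (0.418%), 3 of them in this list, and its median over the list was 1.52. For the mitochondrially encoded genes the medians had opposite signs, 0.60 on DAMPs and −0.32 on vehicle, with 9 of 12 differences at an unadjusted p under 0.05, against the same 9.88%. Their median on DAMPs was 0.37 without DAMPs replicate 3. Cytosolic ribosomal protein genes also had medians of opposite sign, 0.31 on DAMPs and −0.20 on vehicle, with 9 of 34 differences at an unadjusted p under 0.05. Nuclear respiratory chain genes had medians of 0.06 and −0.31, with 4 higher and 2 lower genes on DAMPs against 0 higher and 19 lower of the same 74 on vehicle, where 13.9% of all genes were lower. Lcn2 had 2.29, 5.21 and 12.4 FPKM with vehicle and 11.9, 6.35 and 17.7 with Dex, a log2 fold change of 0.90 beside 4.61 on DAMPs (adjusted p of the difference 0.19). Hmox1 had 1000.2, 729.6 and 886 FPKM with vehicle and 1942, 1675 and 2104 with Dex, so that it stood lowest with DAMPs alone, and its log2 fold changes with Dex were 1.13 on vehicle and 1.99 on DAMPs. Class II genes, in contrast, had nearly the same median in both settings, −2.22 on DAMPs and −2.28 on vehicle.

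**Figure D4:**
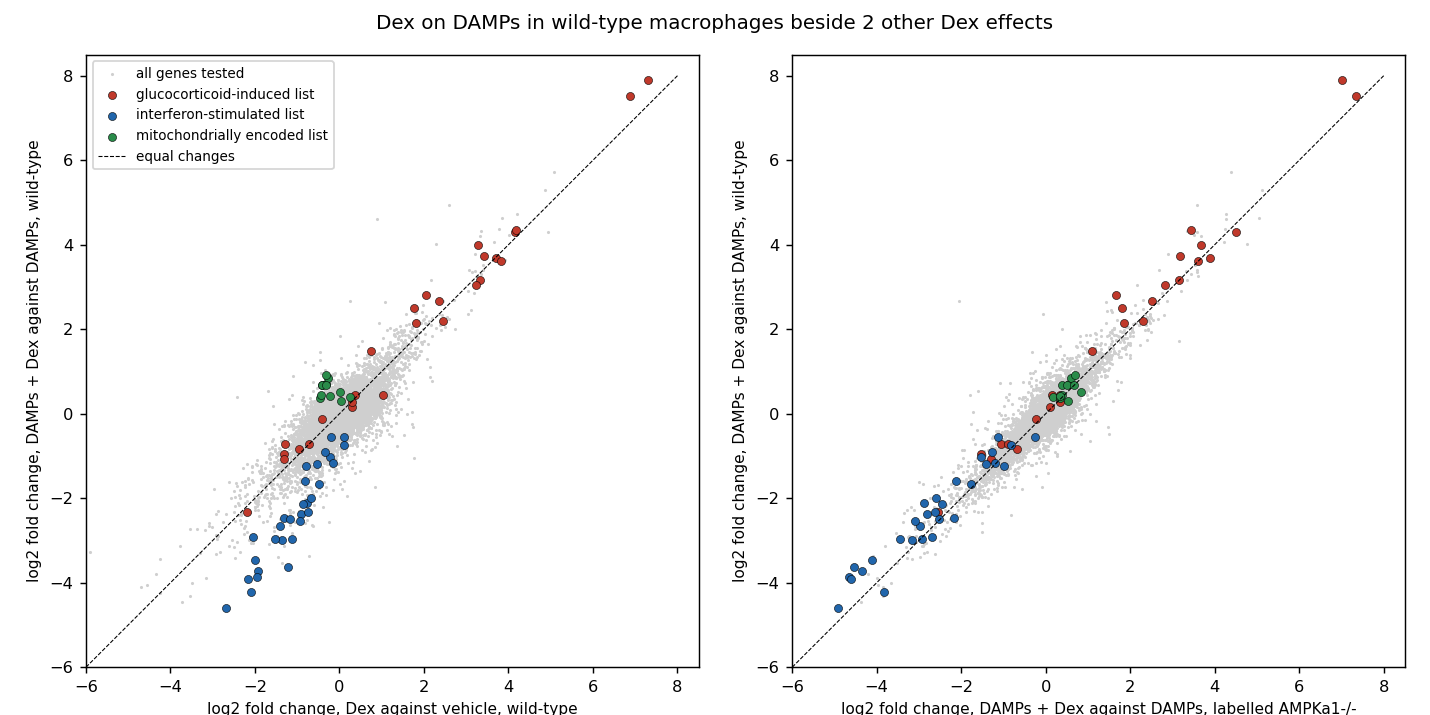
Log2 fold change of DAMPs + Dex against DAMPs in wild-type BMDMs (y axes) plotted against that of Dex against vehicle in wild-type BMDMs (x axis, left) and of DAMPs + Dex against DAMPs in BMDMs labelled AMPKα1-/- (x axis, right), each point one of 11256 genes, with 3 gene lists coloured and the dashed line marking equal changes. In the left panel interferon-stimulated genes lie below the line (medians −2.42 and −0.92) and mitochondrially encoded genes above it (0.60 and −0.32), whereas in the right panel the points lie nearer to the line.

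AMPKα1, encoded by Prkaa1, is the catalytic subunit of an energy-sensing kinase, and 18 libraries carry the label AMPKα1-/-. Prkaa1 had 8.59 to 26.1 FPKM over the 17 wild-type libraries (median 15.3) and 9.05 to 24.0 FPKM over the 18 libraries labelled AMPKα1-/- (median 15.1). The sources used here do not say which exons are deleted, so the FPKM of the whole gene cannot check the label. In the libraries labelled AMPKα1-/-, Dex on DAMPs called 2380 genes (21.1%), 1158 higher and 1222 lower. Of the wild-type calls, 860 higher and 1036 lower genes were called in the same direction there, none was called in the opposite direction, and the Pearson correlation across genes was 0.92. No difference between the genotypes was called (0.0% of genes tested, limma interaction), with 208 genes (1.85%) at an unadjusted p under 0.05 and a smallest adjusted p of 0.39. The 95% interval, again not adjusted for the number of genes, reached a median of 0.52 to either side. The smallest p belonged to Mmel1, a membrane endopeptidase gene, which had 2.71, 2.84 and 3.46 FPKM with DAMPs and 0.614, 0.721 and 0.258 FPKM with DAMPs + Dex in wild-type libraries, and 0, 0.0354 and 0 FPKM and 0.0943, 0 and 0.0539 FPKM in those labelled AMPKα1-/- (difference −1.45, 95% interval −1.94 to −0.95). Next came Ddit4, which rose by 7.91 in wild-type libraries and by 7.02 in those labelled AMPKα1-/- (difference 0.89, 95% interval 0.45 to 1.33), with no call for the difference.

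Dex on DAMPs differed from Dex on LPS in many genes. LPS + Dex against LPS called 2683 of the 11256 genes (23.8%), and the difference between the effects was called for 1415 genes (12.6%), more positive on DAMPs for 673 (5.98%) and more negative for 742 (6.59%) (limma interaction). Of the genes higher with Dex on DAMPs, 486 were also higher with Dex on LPS and 63 were lower there, and of the lower genes 518 were also lower and 115 higher there. The Pearson correlation across genes was 0.50, where the effects share no library. Wild-type LPS has 2 libraries, and without LPS replicate 3 the count of differences was 715. Without LPS replicate 2 it was 740, and both fits take the spread for the single LPS library left from the other groups.

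Among the genes with the smallest p were Ccl17, St6galnac2, Rgs2, Tgfbi and Ccl7. Ccl17 had 302 and 289 FPKM with LPS and 5.05, 5.29 and 8.67 FPKM with LPS + Dex, against 0.372, 0.215 and 0 with DAMPs and 5.40, 8.48 and 5.55 with DAMPs + Dex. Dex thus brought Ccl17 to a like level from opposite sides, and the difference between the log2 effects was 8.0 (95% interval 7.27 to 8.74, adjusted p = 1.3e-06). St6galnac2 fell from 40.5 and 28.8 FPKM with LPS to 16.1, 14.6 and 13.8 FPKM with LPS + Dex, and rose from 0.681, 1.01 and 0.571 FPKM to 33.6, 47.8 and 47.3 FPKM on DAMPs (difference 5.79, adjusted p = 2.6e-06). Tgfbi, a matrix protein gene, moved in the same opposite way (1.64 on DAMPs and −1.42 on LPS). Ccl7, a ligand of CCR2, had 121 and 94.1 FPKM with LPS and 0.177, 0.203 and 0.654 FPKM with LPS + Dex, whereas it had 1.07, 1.03 and 2.49 FPKM with DAMPs and 1.08, 0.236 and 0.977 FPKM with DAMPs + Dex (difference 5.83). Between DAMPs and DAMPs + Dex the Ccl7 libraries overlapped and the change was not called (log2 fold change −0.51). Rgs2, a regulator of G protein signalling, rose by 3.48 on LPS and fell by 0.72 on DAMPs.

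By gene list, genes of mitochondrial metabolism had different medians under both stimuli. The median log2 fold change with Dex was 0.05 on DAMPs and 0.71 on LPS for the TCA cycle, where 8 of 17 differences were called, each more negative on DAMPs (6.59% of all genes). For nuclear respiratory chain genes it was 0.06 on DAMPs and 0.72 on LPS, with 17 of 74 differences called in the same direction, against the same 6.59%. For mitochondrially encoded genes it was 0.60 on DAMPs and 1.33 on LPS, but only 1 of 12 differences was called, also more negative on DAMPs. Inflammatory cytokine genes had medians of −0.65 on DAMPs and −1.87 on LPS, with 6 of 13 differences called more positive (5.98% of all genes) and 1 more negative on DAMPs (6.59%). Tnf and Il1b were among those 6, but with a pseudocount of 0.1 their differences were 0.20 and 2.72 and were not called. Tnf had 331 and 455 FPKM with LPS and 20.8, 22 and 30.3 with LPS + Dex, and even the latter values lay above the 7.44, 6.71 and 10.3 FPKM of the DAMPs libraries. Interferon-stimulated genes had a median of −4.25 on LPS, where all 30 were called lower (12% of all genes), against −2.42 and 27 on DAMPs. Class II genes had a median of −0.78 on LPS, where H2-Aa had 17.4 and 39.8 FPKM before Dex. Among GC targets, Fkbp5 rose more on DAMPs (difference 1.97, adjusted p = 0.0011) and Tsc22d3 less (−2.22, adjusted p = 1.7e-04). Tsc22d3 had 2.48 and 3.5 FPKM with LPS and 248, 257 and 210.0 FPKM with LPS + Dex, so that its level with LPS lay far under the 60.9, 57.1 and 73.9 FPKM with DAMPs.

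**Figure D5:**
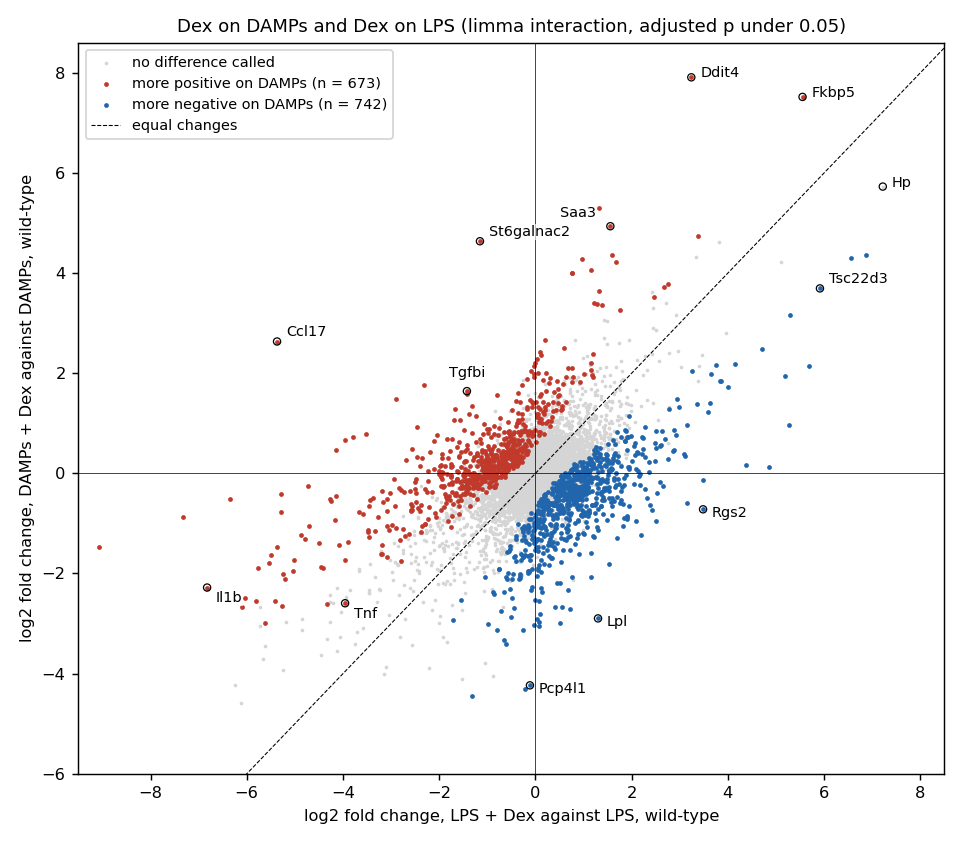
Log2 fold change of DAMPs + Dex against DAMPs (y axis) plotted against that of LPS + Dex against LPS (x axis) in wild-type BMDMs, each point one of 11256 genes, coloured where limma called the difference between the effects (673 more positive and 742 more negative on DAMPs). Ccl17 and St6galnac2 lie at the upper left, risen with Dex on DAMPs and fallen with Dex on LPS, and Rgs2 lies at the lower right.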

How the data were processed

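RNA-seq was done on total RNA from BMDM cultures, 1 library per culture. The submitters' processing notes name Bowtie2 2.2.3, TopHat2 2.0.12, HTSeq 0.6.1 and the build GRCm38/mm10. The authors deposited FPKM per gene for each library, with no counts, and 47069 gene identifiers of which 46488 were given a symbol and position from GENCODE M21 (GRCm38). Library totals in fragments were inferred from the FPKM steps, where 55.4% to 62.9% of values in the 6 libraries came out whole within 0.001, so no count test was run. The labels give no batch, and the number of libraries limits the precision.

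From the FPKM values, log2(FPKM + 1) was fitted with limma 3.58.1 in R 4.3.3 (moderated test with a trend, two-sided, Benjamini-Hochberg adjusted p under 0.05) over genes with a mean of at least 1 FPKM in the 6 libraries. The 12 wild-type vehicle, Dex, DAMPs and DAMPs + Dex libraries shared 1 fit. Interaction terms compared the effect of Dex on DAMPs with that on vehicle, on LPS and in the libraries labelled AMPKα1-/-. Tables and plots were made in Python 3.11.15 with pandas 2.3.3, and the fit was tested on simulated data. The labels number the replicates, but same-numbered libraries did not deviate together in all 3 pairs, so the fit had no replicate block. The fits were repeated with a minimum of 5 FPKM or none, a pseudocount of 0.1, median centring, quantile normalization, all 35 libraries in the fit, the 6 libraries alone, a linear model per gene, a replicate block and leaving out each library.

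Named genes were the 12 largest rises and falls whose groups did not overlap, up to 4 called genes with the largest change in each of 28 lists, 10 genes of GC action and inflammation, the genes with the smallest p in each interaction and the 5 most abundant called genes per direction. Genes with predicted or clone names were passed over, and some genes that the rule names are not reported here. The members and lists were chosen with earlier results of these data known. Tgm2, Anxa1, Angptl4, Sesn1, Bcl6, Orm2, Ifngr2, Tlr7, Ly96, Nfkbia, Tnfaip3, Ifit1, Isg15, Oas1a, Bst2, Gbp3, Cd74, Cd274, Stab1, Itgb5, Cebpb, Irf1, Arntl, Pkm, Ldha, Il6, Il12b, Nos2, Csf1, Il18, Osm, S100a8, S100a9, Cp, Hmgb1, H2-DMb1, H2-DMb2, Mrc1 and Pparg fall outside that rule and were chosen after their values were seen.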

Additional observations from a re-analysis of the deposited data

Results flagged for a closer look

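The effect of Dex differed between DAMPs and LPS for 1415 genes by limma's interaction term, and 13 of them were either among the 10 genes of GC action and inflammation named by rule or had the smallest p. The difference is the log2 fold change with Dex on DAMPs minus that on LPS. It was positive for Ccl17 (8.0), Ccl7 (5.83), St6galnac2 (5.79), Il1b (4.54), Tgfbi (3.07), Fkbp5 (1.97), Tnf (1.36), Hif1a (1.20), Dusp1 (1.05) and Per1 (1.04). It was negative for Rgs2 (−4.20), Tsc22d3 (−2.22) and Il10 (−1.78). Il1b had 13932 and 16653 FPKM with LPS and 211, 38.2 and 292 FPKM with LPS + Dex (log2 fold change −6.82), against 6.38, 2.04 and 10.01 FPKM with DAMPs (−2.28). The differences of Tnf and Il1b depend on the pseudocount, since both genes were under 1 FPKM with DAMPs + Dex. With 0.1 in place of 1 they were 0.20 for Tnf (limma adjusted p = 0.80) and 2.72 for Il1b (adjusted p = 0.24), and neither was called. The difference of Tnf was also not called with quantile normalization. Without LPS replicate 3 the differences of Tnf (1.13), Il1b (4.41), Per1 (0.90), Dusp1 (0.95), Il10 (−1.59) and Hif1a (1.28) were not called, nor were those of Il1b (4.67) and Hif1a (1.12) without LPS replicate 2. These fits hold a single LPS library, whose spread is taken from the remaining groups. The difference of Hif1a was called in 8 of 18 alternatives. Il10 had 2.26 and 1.51 FPKM with LPS and 3.01, 3.65 and 1.1 FPKM with LPS + Dex, a log2 fold change of 0.25 on LPS against −1.54 on DAMPs. Hif1a had 136 and 122 FPKM with LPS and 78.1, 60.3 and 47.6 FPKM with LPS + Dex (log2 fold change −1.07), against 0.13 on DAMPs. Wild-type LPS had 2 libraries, so these values rest on fewer samples than the comparison with DAMPs alone.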

How the results depend on the processing

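The 2620 calls for Dex on DAMPs became 1846 to 2789 under the other filters, scalings, sample sets and pseudocount. They became 888 with a separate unmoderated linear model for each gene in the 6 libraries. Leaving out single libraries gave 2105 to 2452, and 1664 of the 2620 genes were called in every such fit. The calls for a difference from Dex alone went from 0 to 4 with no filter and to 1 with all 35 libraries in the fit, and lay between 0 and 1 when single libraries were left out. For the libraries labelled AMPKα1-/- the count was 1 with all 35 libraries and 0 otherwise. The 1415 differences from Dex on LPS became 2367 with all 35 libraries and 715 to 1592 without single libraries, among them 942 without DAMPs replicate 2. With no filter they were 1844, of which 59.3% were more positive on DAMPs, against 47.6%. Same-numbered libraries were not treated as pairs, since the labels state no pairing and their deviations correlated at 0.358, 0.397 and −0.306, with not every library correlating best with its own number. Whether some of them share an origin was not tested. The replicate block gave 2817 calls, 2537 of them among the 2620, 1682 differences from LPS, and 0 differences from Dex alone and by genotype. With the block, cell cycle calls were 3 higher and 7 lower, and H2-Ab1 had an adjusted p of 3.3e-06, the lowest of its alternatives (up to 0.18).

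Of the 128 named genes called, 74 were called under every alternative. List medians changed sign for matrix genes with no filter (−0.011) and from 5 FPKM (−0.014), and, when single libraries were left out, for cell cycle genes (−0.32 to 0.12), antioxidant and iron genes (−0.18 to 0.028), lysosomal genes (−0.066 to 0.076), receptor partners (−0.13 to 0.15), alternative activation markers (−0.12 to 0.22), the nuclear respiratory chain (−0.041 to 0.16) and lipid handling (−0.041 to 0.084, and −0.032 from 5 FPKM). Medians near 0 of antioxidant and lysosomal genes also changed sign with median centring, as did lysosomal genes with quantile normalization and the other pseudocount. Hif1a, which was not called, ran from −0.030 to 0.32. The cause of these changes was not tested. Genes near 1 FPKM rest on few fragments in the shallowest library, with 15869037 fragments.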

Other observations

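Some marker genes of other cell types moved with Dex while other markers of those types were at or near 0, and they are described here after their values were seen. Ighm, the immunoglobulin heavy chain gene, had 41.2, 39.0 and 31.1 FPKM with DAMPs and 9.28, 11.2 and 11 FPKM with DAMPs + Dex, and 71.9, 72.8 and 67.4 FPKM with vehicle, whereas Ms4a1 and Pax5 stayed below 0.1 FPKM. Cd79b, which encodes a chain of the B cell receptor, had 1.34, 2.14 and 2.70 FPKM with DAMPs and 0.495, 1.25 and 0.429 FPKM with DAMPs + Dex. Cd4 had 34.95, 22.7 and 29.0 FPKM with DAMPs and 15.9, 7.30 and 6.46 FPKM with DAMPs + Dex, with Cd3e and Cd3d below 0.1 FPKM. Mmp8, a collagenase gene listed as a neutrophil marker, was higher in each DAMPs + Dex library than in each DAMPs library. It had 14.6, 6.89 and 10.8 FPKM with DAMPs, and 35.6, 22.7 and 40.4 FPKM with DAMPs + Dex. The same held for the neutrophil marker S100a8, which was not called. S100a8 had 2.62, 1.45 and 2.48 FPKM with DAMPs and 5.10, 3.71 and 7.12 FPKM with DAMPs + Dex. The groups overlapped for S100a9, and Elane, Mpo, Ly6g and Retnlg were near 0. The part of other cell types in these values was not tested.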
